A study of Mus musculus with 29 samples.

Results

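The colon transcriptome of mice given an additional recovery period after 2 cycles of dextran sodium sulphate (DSS) was compared with that of mice studied at the end of 2 cycles. The 10 arrays were taken by their group label, 5 per group, out of 29 arrays in the series. All were female C57BL6J mice aged 6 weeks at the start, each on its own array. A cycle was 7 days of DSS in the drinking water and 2 weeks of plain water. The 2-cycles mice (D4, D5, E2, E3, E4) received 2 such cycles, and the recovery mice (M1, M3, M5, N2, N3) received the same 2 cycles followed by 3 more weeks of plain water. Mice were matched for age at sacrifice, so the recovery mice met their first DSS earlier in life, and time since DSS, age at first DSS and the recovery itself cannot be told apart. RNA came from a snap-frozen piece of distal colon, taken where infiltration was greatest. Where along the distal colon each piece was cut is not given for single mice. All 10 arrays read as colon, with the colonocyte gene Car1 at 12.07 to 13.28 and the colonic keratin Krt20 at 11.04 to 11.79, against array medians of 6.02 to 6.14. In such whole tissue, fewer cells of a type and less RNA per cell cannot be told apart.

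DSS damages the lining of the colon, a single layer of columnar cells made up of absorptive colonocytes, goblet cells that secrete mucus and hormone-producing cells, and the ulcers heal by spreading and division of neighbouring epithelium. Stratified squamous epithelium, as in skin, oesophagus and anal canal, is built differently: basal cells with keratins 5 and 14 give rise to upper layers with keratins such as 4 and 13, held together by desmosomes and sealed by a cross-linked cornified envelope. Many of its genes, though not all, are normally near silent in columnar colon. The comparison asks what changes in the colon when DSS is withheld for longer.

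Values are log2 intensities of probe sets, groups of short DNA probes that usually read 1 transcript, so a difference of 1 is a 2-fold change. A probe set was called where limma gave an adjusted p below 0.05 and a change above 2-fold, in a fit of all 29 arrays. Of 35511 probe sets, 54 were called higher after recovery, which is 0.152%, and 3 were called lower, which is 0.00845%. With no fold threshold these numbers were 92 higher (0.259%) and 7 lower (0.0197%), and at an unadjusted p below 0.05 they were 1669 (4.7%) and 1422 (4%). The 54 probe sets stood for 50 named genes, 1 group of 3 similar desmogleins and 2 probe sets with no gene listed. Of the 50 genes, 39 belong to lists of squamous epithelium genes, and 7 are keratins out of 52 keratin genes measured. The lists were drawn up with the keratin rise already known, so the count describes the called genes and is not independent evidence of their kind. The calls were close to the threshold, with adjusted p between 0.0119 and 0.0479. None was made when the 10 arrays were fitted alone, where the lowest adjusted p was 0.0673 and 3420 probe sets had an unadjusted p below 0.05. Without M1 or without N3 the count of higher probe sets was 0, without M3 or without E4 it was 1, without D4, D5, E2 or E3 it was 11 to 18, and without M5 it was 97. At an unadjusted p below 0.05, 2586 probe sets passed without M1 and 2754 without N3.

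**Figure D1:**
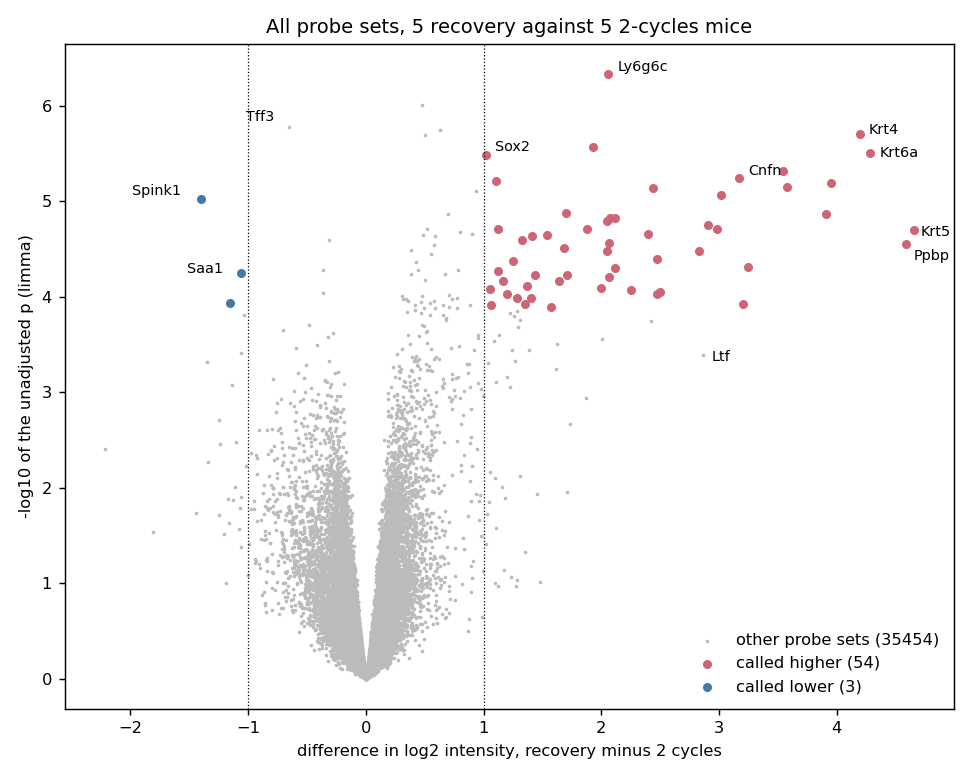
Difference in log2 intensity between recovery and 2-cycles mice (x axis) against the unadjusted p of limma on a -log10 scale (y axis), 1 point per probe set. The 54 called higher (red) reach a difference of 4.65, the 3 called lower (blue) reach -1.40, and dotted lines mark 2-fold changes.

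The recovery mice did not move together. Across the 54 higher probe sets, M1, M3, N2 and N3 lay above every 2-cycles array in 54 of 54. Over all probe sets these mice did so in 22.3%, 15.6%, 14.7% and 16.4%. Mouse M5 lay within the range of the 2-cycles arrays in 28 (51.9%), against 62.1% of all probe sets. It lay above all of them in 17 (31.5%), against 18.3% of all, and below them in the rest. M5 was the lowest recovery array and N2 the second lowest in 52 of 54, an order found in 7.16% of all probe sets. Only 17 of the 54 therefore separated the groups completely, whereas complete separation upward was seen in 1.08% of all probe sets, and with a change above 2-fold in 20 (0.0563%) upward and 10 (0.0282%) downward. The 54 were chosen on the difference between these same mice. Recovery mice lying above the 2-cycles arrays more often in them than in all probe sets was thus built in. A mean over the 5 recovery mice thus joins 3 mice at a high level, 1 in between and 1 in or near the range of 2 cycles.

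**Figure D2:**
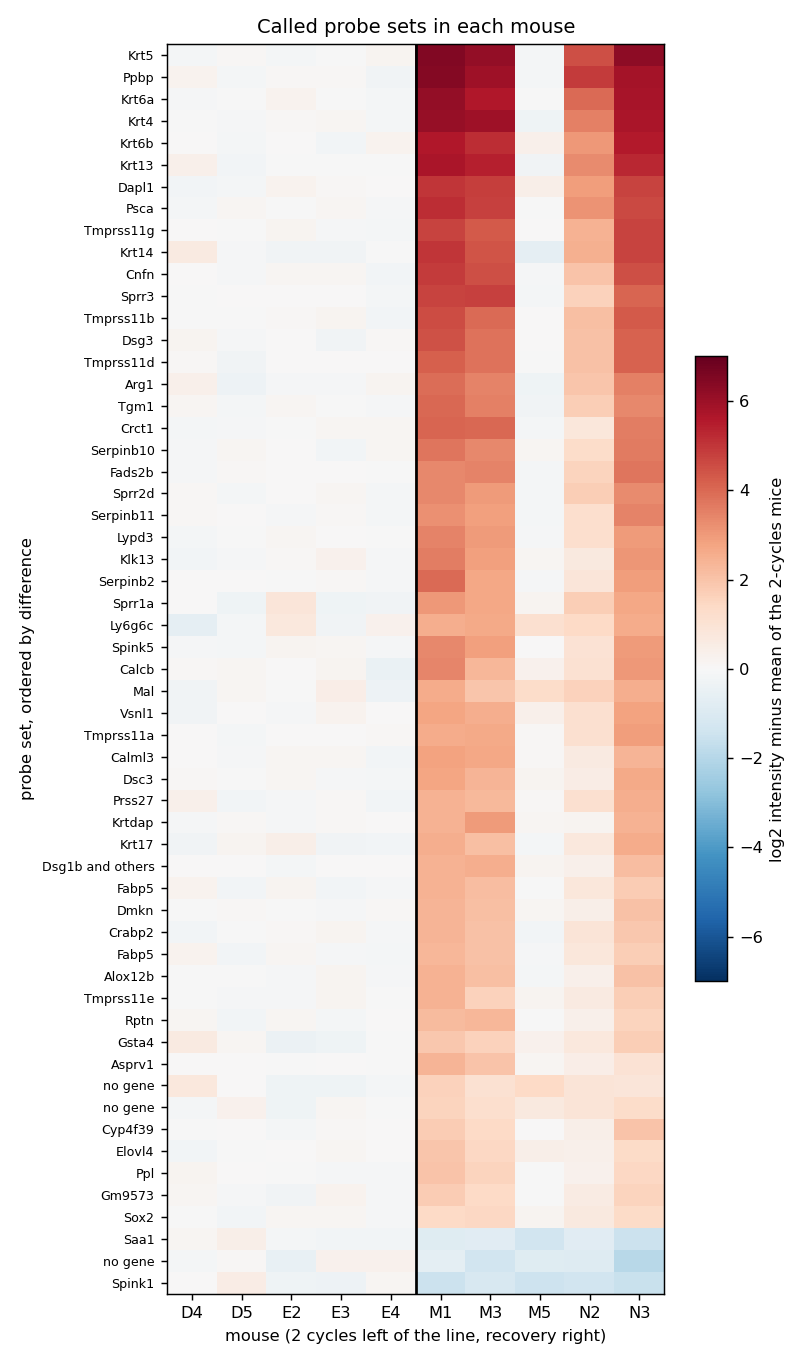
Log2 intensity of each called probe set minus its mean over the 2-cycles mice, by mouse (columns) and probe set (rows, ordered by difference). M1, M3 and N3 are darkest, N2 is paler, and M5 is near the 2-cycles level for 28 of the 54 higher probe sets, while the 3 lower probe sets at the bottom are lower in all 5 recovery mice.

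Keratins made up 5 of the 6 largest differences. Krt5, a keratin of basal cells in stratified epithelium, read 5.55, 5.73, 5.50, 5.66 and 5.86 in the 2-cycles mice D4, D5, E2, E3 and E4. In the recovery mice it read 12.15 in M1, 11.80 in M3, 5.52 in M5, 10.19 in N2 and 11.90 in N3. Of these, 4 mice stood far above the 2-cycles range and M5 was inside it. The mean rose from 5.66 ± 0.15 (SD, n = 5) to 10.31 ± 2.79 (SD, n = 5), a difference of 4.65 ± 0.90 (SE; 2.81 to 6.50 at 95% confidence) or 25.2-fold, with a limma adjusted p of 0.0221. An exact two-sided permutation test of the 10 values gave p = 0.0397, where the smallest possible p is 0.00794.

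Krt14, the partner of Krt5 in basal cells, read 7.29, 6.58, 6.43, 6.42 and 6.61 after 2 cycles and 11.64 in M1, 11.07 in M3, 6.03 in M5, 9.17 in N2 and 11.42 in N3 after recovery. The same 4 mice were high, while M5 was below all 2-cycles mice, and D4 stood above the other 2-cycles mice. Krt14 rose by 3.20 ± 0.71 (SE; adjusted p = 0.0472 by limma).

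Krt4 and Krt13 pair in the upper layers of moist squamous linings such as the oesophagus. Krt4 read 4.87, 4.79, 4.99, 5.06 and 4.77 after 2 cycles against 11.02 in M1, 10.84 in M3, 4.58 in M5, 8.40 in N2 and 10.61 in N3 after recovery, again with M5 alone at the low level. It rose 18.3-fold (limma adjusted p = 0.0119). Krt13 rose 15-fold (adjusted p = 0.0221 by limma), with 5.35 in M5, 8.94 in N2 and 10.90 to 11.33 in the other 3 recovery mice.

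Krt6a, Krt6b and Krt17 are keratins that squamous cells switch on in wounds. Krt6a rose 19.5-fold, Krt6b 15.5-fold and Krt17 2.98-fold, with limma adjusted p of 0.0129, 0.0172 and 0.0479. Krt6a and Krt6b are near copies whose probes may take up each other's transcript. Krt16, the usual partner of Krt6a, missed the call, with a difference of 1.28 ± 0.29 (SE) and an adjusted p of 0.05004 by limma, just above the threshold. Krt84, a hard keratin, differed by 0.21 ± 0.28 (SE; limma adjusted p = 0.885), and D4 read 7.34, above every recovery mouse. Without D4 the difference was 0.55 (limma adjusted p = 0.591). Over the 16 keratins of stratified epithelium the median difference was 1.43, against -0.004 over all probe sets. The 6 keratins of simple epithelium, which columnar colon uses, had a median difference of 0.16 and none was called by limma (2 were higher at an unadjusted p below 0.05), with Krt20 at 0.21 ± 0.14 (SE).

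**Figure D3:**
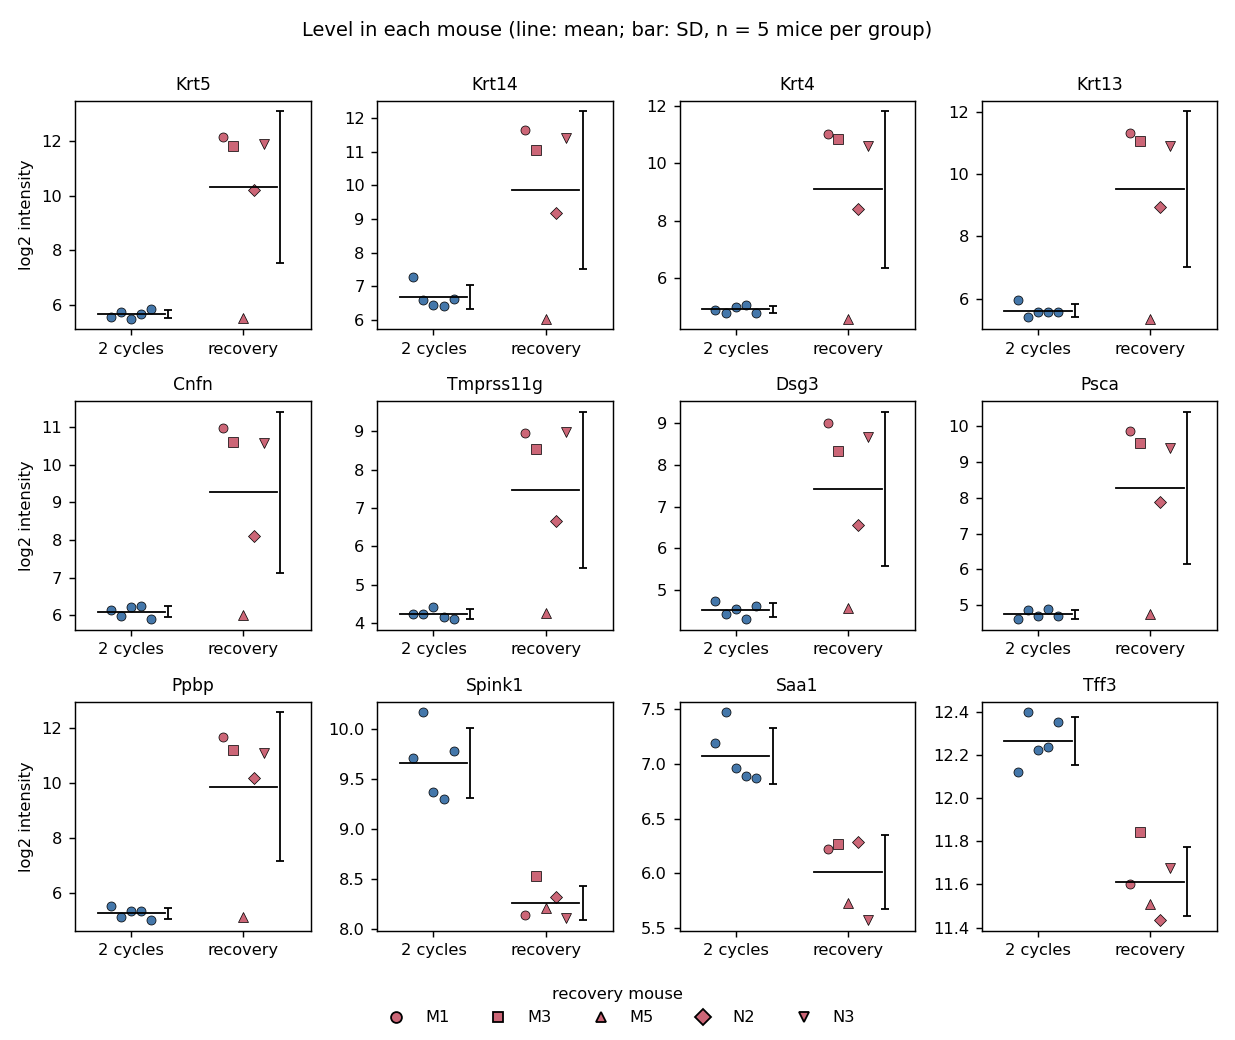
Log2 intensity (y axis) of 12 genes in each 2-cycles mouse (blue) and recovery mouse (red, 1 symbol per mouse), with the mean as a line and the SD as a bar, n = 5 per group. For the first 9 genes, from Krt5 to Ppbp, M5 lies near the 2-cycles mice and N2 below M1, M3 and N3, whereas Spink1, Saa1 and Tff3 separate the groups completely.

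The cornified envelope had 10 of 29 measured genes called higher and none lower. At an unadjusted p below 0.05, 19 were higher and 0 lower. Differences of its members ran from -0.86 to 3.17, so not every member rose. Cnfn, which encodes cornifelin, a protein of the envelope, read 6.14, 5.99, 6.21, 6.25 and 5.90 after 2 cycles and 10.99 in M1, 10.62 in M3, 6.02 in M5, 8.11 in N2 and 10.59 in N3 after recovery. M5 was inside the range of the 2-cycles mice, while N2 stood clear of it and well short of M1, M3 and N3. Cnfn rose 8.98-fold and Sprr3, a small proline-rich protein of the envelope, 8.08-fold (limma adjusted p = 0.0172 and 0.0181). Tgm1, the transglutaminase that cross-links the envelope, rose 5.56-fold, Crct1 5.54-fold and Sprr1a 4.17-fold, with adjusted p of 0.0458, 0.0298 and 0.0243 by limma. Sprr1a read 8.16 to 9.30 in the 2-cycles mice, highest in E2, and M5 at 8.64 was inside this range. Casp14, a protease of keratinocyte cornification outside the list, differed the other way, by -1.20 ± 0.52 (SE), and was not called (limma adjusted p = 0.515). It read 7.29, 8.64, 7.72, 7.98 and 7.79 after 2 cycles and 7.42 in M1, 7.71 in M3, 5.35 in M5, 6.43 in N2 and 6.50 in N3 after recovery, with M5, N2 and N3 below the 2-cycles range and M1 and M3 inside it.

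Among squamous proteases and their inhibitors, 11 of 29 were called higher. They included 5 members of the Tmprss11 family of membrane-bound serine proteases, led by Tmprss11g at 9.5-fold, Tmprss11b at 7.91-fold and Tmprss11d at 7.11-fold. Tmprss11d read 4.07, 3.78, 4.06, 4.06 and 4.05 after 2 cycles, and 8.21 in M1, 7.80 in M3, 3.99 in M5, 6.05 in N2 and 8.13 in N3 after recovery. All but M5 exceeded the 2-cycles mice. Spink5, an inhibitor of the kallikreins that shed the cornified layer, rose 4.14-fold, and Klk13, a kallikrein, rose 4.22-fold (limma adjusted p = 0.0221 and 0.0221). Serpinb10 rose 5.41-fold and was 1 of the 17 probe sets with complete separation, by a narrow margin: M5 read 3.95 and the highest 2-cycles mouse 3.92.

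For adhesion, 3 of 21 genes were called higher. Dsg3, a desmosomal cadherin of squamous cells, rose 7.5-fold, Dsc3, its desmocollin counterpart, 3.24-fold, and Lypd3 4.32-fold (adjusted p = 0.0221, 0.0221 and 0.0337 by limma). Trim29 differed by 2.00 ± 0.48 (SE) without a call (limma adjusted p = 0.0777), with D4 at 7.21 against 6.00 to 6.17 in the other 2-cycles mice. Cd44, an adhesion receptor for hyaluronan, was higher in all 5 recovery mice, at 8.79 to 9.39 against 8.32 to 8.64. Its rise of 1.63-fold passed the test of limma (adjusted p = 0.0458) and not the fold threshold.

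Surface, lipid and retinoid genes followed. Psca, a surface protein anchored by a lipid, rose 11.6-fold, and Dapl1 rose 11.9-fold, with 4.75 to 5.19 after 2 cycles against 5.36 in M5, 7.85 in N2 and 9.68 or more in the other 3 mice. Ly6g6c rose 4.17-fold with M5 included: the lowest recovery mouse, M5 at 8.74, exceeded the highest 2-cycles mouse at 8.31, and its adjusted p by limma was 0.0119. Crabp2, which binds retinoic acid, rose 2.65-fold, Alox12b, a lipoxygenase of the skin barrier, 2.56-fold, and Elovl4, which elongates very long fatty acids, 2.15-fold. Abca12, a lipid transporter of the skin barrier, was higher in all 5 recovery mice (6.47 to 8.16 against 4.94 to 5.98) and was not called (limma adjusted p = 0.398).

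Of 15 transcription factors of squamous epithelium, 1 was called. With no fold threshold 3 were higher by adjusted p, the called one included, beside 0.259% of all probe sets. At an unadjusted p below 0.05, 8 were higher and 1 lower, beside 4.7% and 4% of all probe sets. Sox2, which specifies the stratified lining of the foregut, read 5.04, 4.90, 5.22, 5.18 and 4.98 after 2 cycles and 6.48 in M1, 6.52 in M3, 5.23 in M5, 5.77 in N2 and 6.40 in N3 after recovery. The groups touched but did not overlap, with M5 just above E2. Sox2 rose 2.02-fold (adjusted p = 0.0129 by limma). Trp63, which maintains basal cells, differed by 0.95 ± 0.23 (SE; limma adjusted p = 0.0777), and Grhl3, a regulator of barrier formation, by 0.88 ± 0.31 (SE; limma adjusted p = 0.366). For both, M5 was the lowest of the 10 mice.

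The 54 probe sets are not all independent loci. By gene order in RefSeq (GRCm38.p6), 18 of the 50 genes lay within 5 protein-coding genes of another called gene, in 6 groups: 5 Tmprss11 genes, Krt13 with Krt14 and Krt17, Krt5 with Krt6a and Krt6b, 3 Serpinb genes, Sprr1a with Sprr3, and Dmkn with Krtdap.

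Since genes at different loci rose together, the 250 bases before the start site are shown for 4 of them: a basal keratin, an upper-layer keratin, a cornified envelope gene and the chemokine Ppbp described next. Sequences are from RefSeq (GRCm38.p6), 5′ to 3′ on the strand of the gene, at chr15:101712906-101713155, minus strand for Krt5, chr11:100121567-100121816, minus strand for Krt13 (the more upstream of 2 starts), chr3:92458721-92458970, minus strand for Sprr3 and chr5:90768268-90768517, plus strand for Ppbp. Capitals mark ATAAA, the core of a TATA box, within the last 40 bases, and TGANTCA, a pattern that takes in the AP-1 element TGACTCA and other letters at its centre, anywhere on both strands.
Krt5: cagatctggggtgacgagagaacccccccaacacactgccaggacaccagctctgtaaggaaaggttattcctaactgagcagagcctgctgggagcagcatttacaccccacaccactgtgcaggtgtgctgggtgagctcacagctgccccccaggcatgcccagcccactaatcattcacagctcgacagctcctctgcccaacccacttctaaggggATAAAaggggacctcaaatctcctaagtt
Krt13: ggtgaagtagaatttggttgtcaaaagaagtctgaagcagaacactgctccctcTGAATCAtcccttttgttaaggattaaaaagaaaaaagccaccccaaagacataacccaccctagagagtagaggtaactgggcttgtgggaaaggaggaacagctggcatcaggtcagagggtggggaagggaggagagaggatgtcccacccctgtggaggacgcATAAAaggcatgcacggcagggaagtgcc
Sprr3: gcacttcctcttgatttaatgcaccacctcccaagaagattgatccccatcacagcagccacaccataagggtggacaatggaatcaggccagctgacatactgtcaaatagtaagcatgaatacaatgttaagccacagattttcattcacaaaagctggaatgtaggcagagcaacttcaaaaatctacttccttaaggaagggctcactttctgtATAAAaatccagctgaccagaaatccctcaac
Ppbp: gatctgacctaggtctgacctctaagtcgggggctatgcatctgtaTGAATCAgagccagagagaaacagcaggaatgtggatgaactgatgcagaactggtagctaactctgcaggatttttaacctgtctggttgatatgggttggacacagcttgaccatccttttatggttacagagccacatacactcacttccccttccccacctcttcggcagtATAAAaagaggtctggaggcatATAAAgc
All 4 windows hold ATAAA, beginning 29 bases before the start in Krt5 and Krt13, 32 in Sprr3, and 29 in Ppbp, which holds a further copy nearer the start. TGAATCA, which is not the AP-1 element itself, stands in Krt13 and Ppbp, and no TGANTCA in Krt5 or Sprr3. The promoter table had windows for 33 of the 50 genes. Of their 39 windows, 14 (35.9%) held ATAAA in the last 40 bases, against 5.08% of 19177 windows of measured genes. TGANTCA was present in 15 of the 39 (38.5%), against 6.04% of all, and TGACTCA, searched on both strands and counted within it, in 7 (17.9%), against 4.03%. The letters describe the sequence and do not show a site in use.

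A few called genes are not squamous structural genes. Ppbp, a chemokine best known from platelets, read 5.51, 5.12, 5.34, 5.33 and 5.01 after 2 cycles and 11.67 in M1, 11.20 in M3, 5.12 in M5, 10.18 in N2 and 11.09 in N3 after recovery. Mice M1, M3, N2 and N3 were high and M5 was at the 2-cycles level, as for Krt5. Ppbp rose 24-fold (adjusted p = 0.0243 by limma). Of the other platelet genes, Pf4 differed by 0.17 ± 0.12 (SE) and Gp9 by 0.10 ± 0.10 (SE), and Ppbp was the single call of 5. Arg1, an arginase of alternatively activated macrophages, liver and some epithelia, rose 5.67-fold as the single call among 21 monocyte and macrophage genes. Calcb, a calcitonin gene-related neuropeptide, rose 4.14-fold and was the single call among 14 genes of enteric neurons and glia, of which 6 were higher and none lower at an unadjusted p below 0.05. In Arg1, M5 read 5.04, within the 2-cycles range, and in Calcb 5.66, above the 2-cycles maximum of 5.53. Mal, a membrane protein of lipid rafts, rose 3.99-fold, and every recovery mouse exceeded the 2-cycles mice. Ltf, lactoferrin of neutrophil granules and secretory epithelium, also had M5 lowest and N2 second lowest, at 9.66 in M1, 9.63 in M3, 4.94 in M5, 8.23 in N2 and 9.09 in N3, but was not called at 2.86 ± 0.71 (SE; limma adjusted p = 0.103). None of the 17 neutrophil genes was called by limma, and at an unadjusted p below 0.05 Ltf was higher and Ly6g, a surface protein of neutrophils, lower. Ly6g differed by -1.08 ± 0.46 (SE; limma adjusted p = 0.503), and 3 of the 5 recovery mice (M5, N2 and N3) lay below the 2-cycles range. Its probe set was already bright in controls, at 10.46 to 11.83, where the mean of the neutrophil list was 5.58 to 5.71. Which cells this probe set reads was not tested, so its fall may not describe neutrophils.

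The 3 probe sets called lower separated the groups in all 10 mice, M5 included. Spink1, a secreted trypsin inhibitor, read 9.71, 10.17, 9.37, 9.30 and 9.78 after 2 cycles and 8.14 in M1, 8.54 in M3, 8.21 in M5, 8.32 in N2 and 8.11 in N3 after recovery. The highest recovery mouse, M3, remained below the lowest 2-cycles mouse, E3. Spink1 fell 2.64-fold (limma adjusted p = 0.0186; exact two-sided permutation p = 0.00794). Saa1, an acute-phase protein that colon epithelium also makes, read 7.19, 7.47, 6.96, 6.89 and 6.87 after 2 cycles and 6.22 in M1, 6.27 in M3, 5.72 in M5, 6.28 in N2 and 5.57 in N3 after recovery, with no overlap. It fell 2.09-fold (adjusted p = 0.0345 by limma). The third probe set has no gene listed and fell by 1.15 on the log2 scale. None of the 3 was called when D4, D5, E4, M1, M3 or N3 was left out.

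Tff3, the trefoil peptide that goblet cells secrete with mucus, passed the test without reaching 2-fold. It read 12.12, 12.40, 12.22, 12.24 and 12.35 after 2 cycles and 11.60 in M1, 11.84 in M3, 11.51 in M5, 11.43 in N2 and 11.68 in N3 after recovery, and every recovery mouse was below every 2-cycles mouse. It fell 1.57-fold (limma adjusted p = 0.0119). Further genes of the columnar lining separated the groups downward without passing the adjusted test. Muc1, a membrane mucin, had a difference of -1.25 ± 0.36 (SE; limma adjusted p = 0.202), Scnn1g, a subunit of the epithelial sodium channel, -1.14 ± 0.30, Best2, a channel of goblet cells, -1.02 ± 0.34, and Insl5, a hormone of colonic L cells, -0.84 ± 0.33. Slc37a2, a sugar phosphate exchanger, differed by -0.99 ± 0.46 (SE; limma adjusted p = 0.546) with overlapping groups. Complete separation downward was seen in 0.893% of all probe sets. The lists did not move as a whole: of 26 absorptive colonocyte genes 1 was called (Saa1, lower), of 13 goblet cell genes none and of 14 enteroendocrine genes none, with median differences of -0.05, -0.14 and 0.03. At an unadjusted p below 0.05, 1 colonocyte gene was higher and 6 lower, 1 goblet cell gene was lower, and 2 enteroendocrine genes were higher and 2 lower. Car1, a carbonic anhydrase of colonocytes, was above the 2-cycles range in all 5 recovery mice (12.80 to 13.28 against 12.07 to 12.36), with a limma adjusted p of 0.354. Ang4, an antimicrobial ribonuclease of the crypt, differed by 1.87 ± 0.51 (SE) and Retnlb, a goblet cell cytokine, by 1.24 ± 0.69 (SE), neither called (limma adjusted p = 0.165 and 0.641).

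Smaller rises were seen in all 5 recovery mice. Of the 92 probe sets higher by adjusted p alone, 46 separated the groups completely, as did all 7 of those lower. Dusp22, a protein phosphatase, read 6.84 to 7.24 after 2 cycles and 7.44 to 7.99 after recovery, a rise of 1.55-fold (limma adjusted p = 0.0119). Meis2, a homeobox transcription factor, rose 1.71-fold and Car5b, a mitochondrial carbonic anhydrase, 1.91-fold (adjusted p = 0.048 and 0.0172 by limma). M5 was close to the highest recovery mice, M1 and N3, for Meis2, at 8.57, unlike its place for the keratins. These 3 genes were chosen after their values were seen.

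Lists of tissues that could lie beside squamous epithelium were read for the same mice. None of 20 skeletal muscle genes and none of 15 hair follicle and sebaceous gland genes was called by limma, and at an unadjusted p below 0.05 the counts were 0 and 1, with median differences of 0.00 and 0.03. That 1 gene was the hair follicle keratin Krt71, higher by 0.26 ± 0.11 (SE; limma adjusted p = 0.468). Krt71 read 5.96 in M1, 5.73 in M3, 5.35 in M5, 5.55 in N2 and 5.76 in N3, against 5.26 to 5.54 after 2 cycles. The mean of the skeletal muscle genes was 5.81 to 6.03 in 2-cycles mice and 5.87 to 6.02 in recovery mice, and 5.86 to 6.06 in controls. For hair follicle and sebaceous gland it was 5.23 to 5.40 and 5.19 to 5.41, against 5.28 to 5.38 in controls. The 8 posterior Hox genes, which mark position towards the hind end of the gut, had a median difference of -0.32 with no call by limma, 1 being higher and 1 lower at an unadjusted p below 0.05. Their mean was 6.77 to 7.38 after 2 cycles and 6.50 to 6.97 after recovery, and was lowest in M5 and N3, of which M5 had low and N3 high squamous genes. Hoxd13 differed by -0.88 ± 0.57 (SE) and Hoxb13 by -0.75 ± 0.52 (SE), with limma adjusted p of 0.7 and 0.728. The part of the position of the piece in these differences was not tested.

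**Figure D4:**
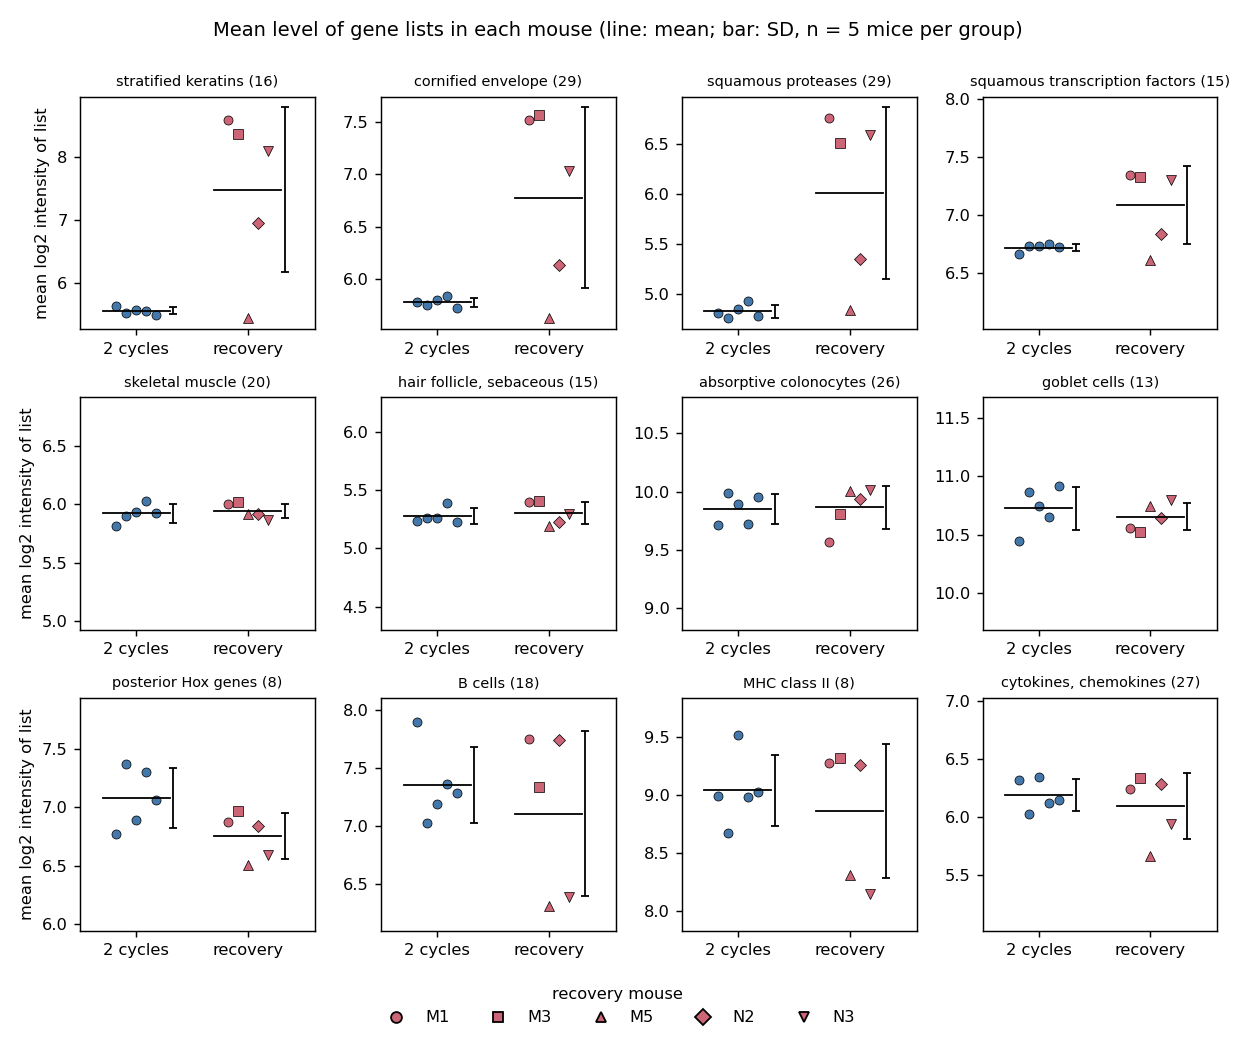
Mean log2 intensity over the measured genes of 12 lists (number of genes in brackets), by mouse, with the group mean as a line and the SD as a bar, n = 5 per group. The squamous lists separate M1, M3, N2 and N3 from the 2-cycles mice, with N2 the nearest to them. The muscle, hair follicle, colonocyte and goblet cell means overlap, and the B cell and MHC class II means are lowest in M5 and N3.

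Most lists of inflammatory, immune cell and matrix genes held no call, the calls of Arg1 and Ppbp given above being the exceptions. No member of 27 cytokine and chemokine genes, 18 interferon gamma response genes, 8 MHC class II genes, 18 B cell genes, 14 plasma cell genes, 22 T and NK cell genes, 17 collagens, 17 metalloproteinases and inhibitors, 25 other matrix genes or 17 smooth muscle genes passed the test of limma, and their median differences lay between -0.25 and 0.20. At an unadjusted p below 0.05, 1 cytokine, 1 plasma cell, 1 metalloproteinase, 2 other matrix and 4 smooth muscle genes were higher, and 2 cytokine genes and 1 collagen were lower. Of all probe sets, 4.7% were higher and 4% lower at this p. All 17 smooth muscle differences were above 0, from 0.008 to 0.82, and all 8 of MHC class II below 0, from -0.42 to -0.002. Recovery mice again differed among themselves. The B cell mean was 6.31 in M5 and 6.39 in N3, below the 2-cycles range of 7.03 to 7.89, whereas M1, M3 and N2 lay inside it. MHC class II means of 8.31 in M5 and 8.15 in N3 were likewise below the 2-cycles range of 8.67 to 9.52, and those of M1, M3 and N2 inside. Ms4a1, which encodes CD20 of B cells, read 7.75 in M1, 7.17 in M3, 5.36 in M5, 7.89 in N2 and 5.42 in N3, against 6.86 to 8.31 after 2 cycles. Of these 2 mice, M5 was low and N3 high for squamous genes. Among single genes, Il1b, an inflammatory cytokine, differed by -0.79 ± 0.48 (SE), Ccl3, a chemokine, by -0.84 ± 0.43 (SE), Col1a1, a chain of type I collagen, by -0.25 ± 0.11 (SE) and Timp1, an inhibitor of metalloproteinases, by -0.34 ± 0.33 (SE), with limma adjusted p of 0.676, 0.597, 0.535 and 0.836. Among arrays of the high set defined further on, the median of the MHC class II genes was -0.36 against -0.18 over all arrays, and that of the interferon gamma response genes -0.26 against -0.12. With 5 mice per group, changes of 2-fold in simulated data passed the adjusted p in 90% of cases and both thresholds in 44%, and 3-fold changes passed both in 98%. The changed probe sets were drawn at random and given normal noise, so these shares may not hold for genes as variable as Il1b. Changes under 2-fold were not simulated.

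The colitis response was also followed through genes that other mice of the series had pointed to, none of which belong to the 10 mice compared. Relative to controls, acute colitis raised 489 probe sets (1.38%) and lowered 496 (1.4%). After recovery, 2 of the 489 were called higher and none lower, with a median difference of -0.07 and 65.8% below 0, and of the 496, 1 was called higher and 1 lower, with a median of -0.14 and 64.3% below 0. Of 309 (0.87%) raised after 1 cycle, none was called, the median difference was -0.15 and 79.0% were below 0, against 51.5% of all probe sets. Of 363 (1.02%) raised after 3 cycles, 1 was called higher, the median was -0.08 and 63.4% were below 0. For those lowered elsewhere the median difference was -0.39 for the 66 (0.186%) of 1 cycle, of which 83.3% were below 0, and -0.45 for the 212 (0.597%) of 3 cycles, of which 89.6% were below 0, with none called in either set by limma. At an unadjusted p below 0.05, 13 of the 66 (19.7%) and 84 of the 212 (39.6%) were lower and 1 of each was higher, beside 4% lower and 4.7% higher of all probe sets. For those raised after 1 cycle, 10 were lower and 3 higher. Among arrays of the high set defined in the next paragraph, the medians of the 66 and the 212 were -0.37 and -0.34. All 3-cycles arrays are in that set, whereas all controls, D4 and D5 are not. Genes chosen on 3 cycles against controls may thus include genes that differ between the sets of arrays. The part of this in the shares of the 363 and the 212 was not tested.

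A probe set annotated to the mitochondrial gene for ATP synthase subunit 6 splits the series into 2 sets of arrays, a low set at 7.10 to 8.14 and a high set at 11.09 to 11.92. All 5 recovery mice and E2, E3 and E4 are in the high set, and D4 and D5 in the low set. Within the high set all 54 probe sets kept a difference above 0 and an unadjusted p below 0.05, 53 remained above 2-fold, and their differences were 0.874 to 1.22 times those over all mice, although none passed the adjusted test, where the lowest adjusted p of any probe set was 0.311 and 2204 had an unadjusted p below 0.05. With the set as a covariate 11 were called higher, all among the 54, and 1 lower, which is not among the 3. Spink1 and Saa1 then had adjusted p of 0.0601 and 0.138 by limma. The controls and the 1-cycle mice are all in the low set and the recovery and 3-cycles mice all in the high set, so for recovery or 3 cycles against controls set and group cannot be told apart. The 2-cycles and acute colitis arrays fall in both sets, so against controls set and group are partly mixed there too.

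**Figure D5:**
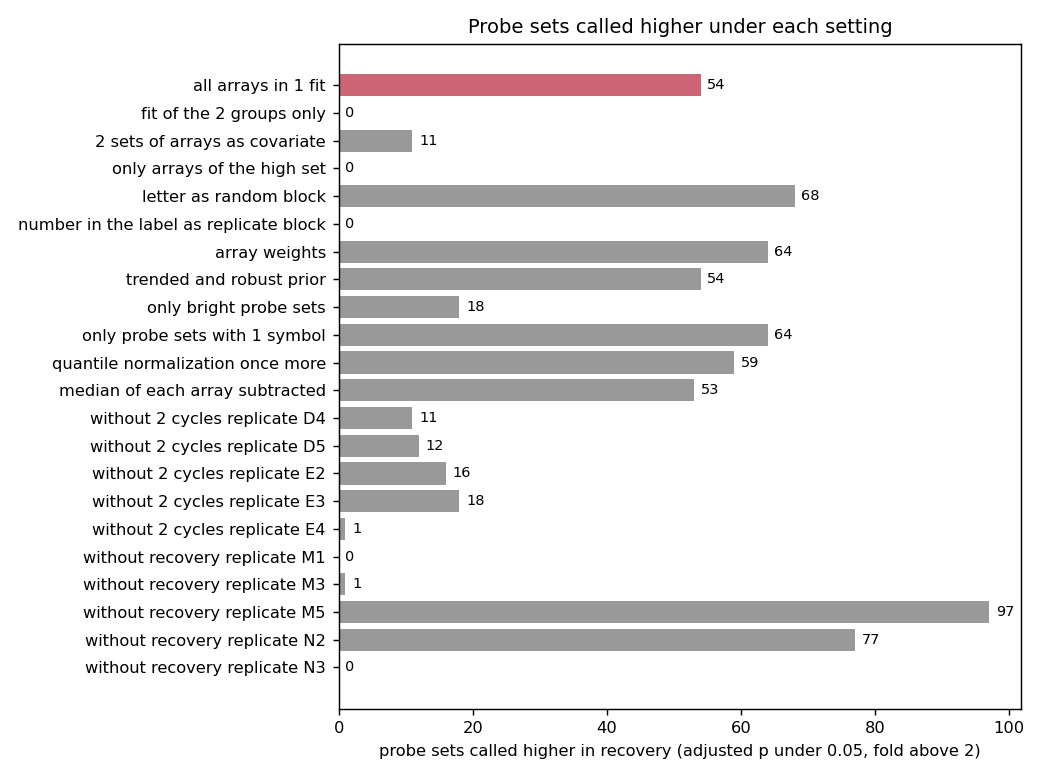
Number of probe sets called higher after recovery (x axis) under each setting (y axis), with the fit of all arrays in red. The count of 54 falls to 0 when the 10 arrays are fitted alone, in the high set of arrays, with the number in the mouse label as a block, and without M1 or N3, and rises to 97 without M5.

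Levels in controls are given beside both groups. Against controls, 382 probe sets (1.08%) were called higher and 200 (0.563%) lower after recovery, and 322 (0.907%) higher and 44 (0.124%) lower after 2 cycles. Krt5 differed from controls by 4.62 after recovery (limma adjusted p = 0.0016) and by -0.04 after 2 cycles (limma adjusted p = 0.991). Of the 54 probe sets, 48 were also called higher in recovery mice than in controls, and none was called in either direction in 2-cycles mice against controls. Controls are shared by these comparisons, so their calls are not independent. Recovery mice are all in the high set of arrays and 2-cycles mice only in part, with all controls in the low set. The part of this in the counts against controls was not tested. For Spink1 the differences from controls were -0.65 after recovery and 0.75 after 2 cycles, neither called, and for Tff3 they were -0.14 and 0.51. Saa1 was called lower than controls after recovery, with a difference of -1.01 (limma adjusted p = 0.00386). After 2 cycles Saa1 differed from controls by 0.05 (limma adjusted p = 0.943). The MHC class II gene H2-Ab1 was above controls by 1.79 after recovery and by 2.01 after 2 cycles, both called (limma adjusted p = 0.000277 and 9.63e-05).

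A mouse outside the 2 groups also read high for many of these genes. In the 3-cycles group, mouse G3 stood above the other 4 mice in 46 of the 54 probe sets, against 25.5% of all probe sets, and by more than 1 log2 unit in 24, against 0.239% of all. G3 read 10.91 for Krt5, 9.85 for Krt14 and 10.79 for Ppbp, between N2 and the highest recovery mice, but 5.95 for Krt4 and 4.85 for Sprr3, below N2.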

How the data were processed

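Colon RNA of 29 mice was measured on Affymetrix Mouse Gene ST arrays, 1 array per mouse. The authors deposited log2 intensities made from the scanned arrays by RMA (robust multichip average: background correction, quantile normalization, summary of the probes of a probe set), with R 2.12.2 in the submitters' processing notes, and these values were used with no further normalization or filter. The files give no probe signals or background, so precision rests on how many arrays there are. Of 35511 probe sets, 21789 carry 1 gene symbol in the platform annotation, 1621 several and 12101 none. By gene identifier, 21698 matched RefSeq, and 0 symbols were changed. Where a gene had more than 1 probe set, the brightest was taken. Of the 29 columns, 0 were left out.

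Limma 3.58.1 in R 4.3.3 fitted 1 mean per group over all 6 groups and 29 arrays, with moderated variances on 26.2 degrees of freedom, and tested recovery minus 2 cycles. Benjamini-Hochberg adjustment of the p-values covered every probe set of the array. A call needed an adjusted p below 0.05 and a change above 2-fold. Each SE of a difference uses this variance pooled over groups, so it is too narrow for genes that varied mostly among recovery mice. Fold changes are 2 to the power of the difference in mean log2 intensity. Single values were compared by exact two-sided permutation of the 10 mice. Members and gene lists were chosen with earlier results of these data known. The rule for named genes took the 20 largest rises and 10 largest falls among called genes (uncalled falls with an unadjusted p below 0.05 filling up the 10, as values only), the keratins and Ppbp that the study names, up to 3 members per list by size of difference, and markers. Not every list member and marker under the rule is described. Other genes named, among them Tff3, Sox2, Cd44, Car1 and the smaller squamous calls, were chosen after their values were seen. Lists are described by counts and medians. The 10 mice are different animals, and the numbers in their labels that recur in both groups were not taken as pairs. The limma step was tested on simulated data with these means and normal noise, at 1 spread per probe set pooled over all groups. Of 50 randomly drawn probe sets changed by each fold, 44% were called at 2-fold, 98% at 3-fold and 100% at 4-fold. Of the unchanged probe sets, 0 were called.

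Alternatives were a fit of the 10 arrays alone, the 2 sets of arrays as a covariate, the high set alone, the letter of the label as a random effect, weighting of arrays, a robust prior with trend, bright probe sets alone (17682 kept), probe sets with 1 symbol, repeated quantile normalization, centring of arrays, each array left out, no fold threshold, exact permutation tests, medians, and all probe sets of a gene. Complete separation of the groups, and the number in the label as a block, were added after seeing the data. Promoter windows were searched in Python 3.11.15.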

Additional observations from a re-analysis of the deposited data

Results flagged for a closer look

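In 13 of 218 groups of 5 mice tested (69 genes and 40 list means in both groups), 1 mouse stood apart from the others by more than Dixon's test allows at the 95% level, and chance flags about 1 group in 20. Among recovery mice these were M5 for Ppbp at 5.12 and for the mean of 5 platelet genes, which holds Ppbp, at 5.84, and M3 for Retnlb at 8.59, below the others in each case. Among 2-cycles mice, D4 was high for Krt14 at 7.29, Trim29 at 7.21 and the mean of squamous lipid and retinoid enzymes at 6.06. D5 was low for Tmprss11d at 3.78 and high for Scnn1g at 8.11. E3 was high for Alox12b at 5.29 and the hair follicle and sebaceous gland mean at 5.40, and low for Il1b at 6.98. E4 was low for Calcb at 4.89, and E2 was high for the mean of interferon gamma response genes at 8.20.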

How the results depend on the processing

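The count of 54 probe sets called higher was 68 with the letter as a random block, 64 with array weights, 54 with a trended and robust prior, 64 among probe sets with 1 symbol, 59 after quantile normalization once more and 53 with array medians subtracted, and each of these holds at least 51 of the 54. It was 0 in the fit of the 2 groups only, 0 in the high set of arrays, 11 with the 2 sets as covariate, 18 among bright probe sets and 92 with no fold threshold. Complete separation above 2-fold held for 20 probe sets, 17 of them among the 54. With 1 mouse left out at a time, the count ranged from 0 (without M1 or N3) to 97 (without M5).

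The count of 3 called lower was 0 in the fit of the 2 groups only and in the high set, 1 with the 2 sets as covariate (a probe set that is not among the 3), 5 with the letter as a random block, 7 with no fold threshold and 10 by complete separation above 2-fold. It ranged from 0 to 5 with 1 mouse left out, being 0 without D4, D5, E4, M1, M3 or N3. In the other settings, apart from the replicate block described last, it was 2 to 4. Among probe sets chosen on other mice, none was called in the high set, against 2 of the acute higher, 2 of the acute lower and 1 of the 3-cycles higher sets over all arrays.

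Of 69 genes named, 36 were called, and none of the 36 changed direction under any alternative run. Exact permutation tests with adjustment over the 69 genes gave an adjusted p below 0.05 for 21 of the 36, with 0.0228 the smallest. These genes were largely chosen on values of the same mice. The adjustment therefore spans far fewer tests than all probe sets and is not independent evidence for the calls. The difference of medians for H2-Ab1 was 0.20, opposite to that of the means. List medians were recomputed over all probe sets of a gene and in the high set, and moved by less than the SD of the list's means over recovery mice, a wide measure. The labels' numbers 2, 3 and 5 recur in both groups, but the mice differ and not every pair of the same number deviated together: the correlation over probe sets of their deviations from the group means was 0.114 for D5 and M5, 0.0437 for E2 and N2, 0.0617 for E3 and M3, and -0.0941 for E3 and N3. With the number as a replicate block, chosen after seeing the data, 0 were called higher and 0 lower by limma, with 2997 at an unadjusted p below 0.05. The cause of the lost calls was not tested.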

Other observations

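Called genes outside the squamous lists also included lipid and detoxification enzymes. Fads2b, a fatty acid desaturase, rose 5.26-fold, Fabp5, a fatty acid binding protein abundant in keratinocytes, 2.71-fold by the more changed of its 2 called probe sets, and Gsta4, a glutathione transferase, 2.37-fold. Vsnl1, a calcium sensor of neurons, rose 3.8-fold, at 4.99 to 5.51 after 2 cycles and 5.63 to 8.04 after recovery, without overlap. Their limma adjusted p were 0.0221, 0.0347, 0.0303 and 0.0129.

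Some uncalled genes also separated the groups in all 10 mice, and are given as values. Sval1 read 11.10 to 11.69 after 2 cycles and 10.01 to 10.91 after recovery, Wfdc18, a secreted protein with a WAP domain, 8.26 to 10.04 after 2 cycles and 6.79 to 8.20 after recovery, and Moxd1, a copper enzyme, 5.58 or less after 2 cycles and more after recovery, up to 6.65. The limma adjusted p of Sval1 was 0.385 and that of Wfdc18 0.259. Moxd1 passed the adjusted test at 0.0472 with a change of 1.85-fold. The genes of both paragraphs were chosen after their values were seen, apart from those that the rule for named genes holds.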
